A study of Canis lupus familiaris with 7 samples.

Results

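The genes described here encode the large ATP-driven chaperone machines of the cell: the HSP70 and HSP110 proteins, the HSP90 proteins, the DNAJ co-chaperones that bring clients to HSP70, the ring-shaped cytosolic chaperonin CCT and the mitochondrial chaperonin HSPD1 with its lid HSPE1. They were measured in the left ventricle of dogs kept on a low-salt diet and of control dogs. Members were taken by gene symbol alone, as every probe set whose single symbol in the platform annotation begins with HSPA and a digit, HSP90, DNAJ or CCT2 to CCT8, or is HSPD1, HSPE1 or HSPH1. A probe set is a group of short probes aimed at 1 transcript. The rule gave 137 of the 42924 probe sets that are not array controls, for 62 of the 15115 genes named by a single symbol. Of these members, 110 probe sets for 53 genes were bright enough to be tested, and 27 probe sets, which include all those of 9 genes, were too dim.

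The animals were adult male mongrel dogs of 25 to 28 kg. The 4 low-salt samples come from dogs fed a diet holding 0.5% sodium chloride over 2 weeks, and the 3 control samples carry no stated diet. The design text names 10 dogs on the diet, and how these relate to the 4 low-salt arrays is not stated. Its tests count 3 control and 4 low-salt dogs, the same numbers as the arrays. That each array holds RNA of its own animal is not stated outright. The p-values below therefore cover only the spread among these arrays, which may be partly technical. The samples are numbered 1, 3 and 4 in the control group and 1 to 4 in the low-salt group, and all are total RNA from the ventricular wall read on 1-colour Affymetrix canine arrays.

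HSP70 proteins bind short hydrophobic stretches of unfolded clients in a cycle of ATP hydrolysis, which DNAJ proteins start through their J domain and which nucleotide exchange factors such as the HSP110 proteins reset. Clients such as kinases and steroid receptors pass on to HSP90, and actin and tubulin fold inside the CCT ring. Separate sets serve the endoplasmic reticulum (HSPA5, known as BiP, and HSP90B1, known as GRP94) and the mitochondrial matrix (HSPA9, HSPD1 and HSPE1), and many cytosolic members are induced by the heat shock factor HSF1 in stressed heart muscle.

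Values below are log2 signals, the log2 of the deposited intensity plus 16 after the arrays were given the same distribution. A change is the low-salt mean minus the control mean on that scale, which understates the change of dim probe sets. Brightness differs between probe sets for reasons other than abundance, so levels are compared only within a probe set. Arrays carry no read depth, and the number of samples limits the precision. In whole-tissue RNA, fewer cells of a type and less RNA per cell cannot be told apart.

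Cardiomyocyte markers gave signal in every sample. The summed deposited intensity of the 9 cardiomyocyte genes named on the array ran from 77866 to 122614 in controls and from 76407 to 102992 in low salt. The same sums for 7 fibroblast, 7 endothelial, 6 smooth muscle and 9 macrophage genes overlapped between the groups too, and of the brightest probe sets of all 8 marker lists 0 passed an adjusted p of 0.05 by limma, with 1 cardiomyocyte, 1 smooth muscle and 2 macrophage ones higher at an unadjusted p under 0.05. Lymphocyte sums reached 391 and erythroid sums 103, and CLDN5 of endothelium, MPO of neutrophils and CD79A and MS4A1 of B cells had a median deposited intensity below 16. The ratio of 3' to 5' GAPDH signal, a measure of RNA integrity, was lower in every low-salt sample than in any control, at 14.5 to 22.6 against 22.7 to 40.9 in 1 pair of probe sets (p = 0.0571 by an exact permutation test, two-sided, which is its lowest possible value with 35 splits) and at 2.03 to 2.41 against 2.43 to 2.78 in the other. It therefore moves with every difference between the groups given below, and its part in them was not tested.

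No chaperone gene stood apart from the controls once all probe sets were accounted for. Of the 110 tested members 0 passed an adjusted p of 0.05 by limma, where 0.346% of all 28616 tested probe sets did, and the smallest adjusted p among them was 0.3. At an unadjusted p under 0.05 there were 11 members, 8 higher and 3 lower in low salt, or 10.0% of the members beside 11.0% of all tested probe sets (5.27% higher and 5.78% lower). The methods' t-test, run on the same values, passed 0 after Benjamini-Hochberg adjustment and 4 unadjusted, all of them higher. The share of all tested probe sets by that test is not given here, so these 4 are not set against it. An unadjusted p under 0.05 with at least a 2-fold change, the threshold in the design text, was met by 2 members with limma, DNAJA3 and DNAJB5, beside 4.4% of all probe sets, and by 0 with the methods' t-test. Both genes are dim there, and with an offset of 64 in place of 16 their changes were 0.56 and 0.46, short of 2-fold. The dim filter used the mean over all 7 arrays, so 1 group alone could carry a probe set past it. The dimmest tested members averaged 5.01. DNAJB5 averaged 4.75 in controls and 5.76 in low salt, and DNAJC18, also among the 8 higher, 4.52 and 5.45. Both were thus tested only through their low-salt values, and their place in these counts is no support for a change. Single samples carried part of these counts. The 8 higher members became 1 without control 1, 4 without low-salt 2 and 4 without low-salt 4. The 3 lower ones became 1 without control 1, low-salt 1 or low-salt 4. Shares of all tested probe sets without these samples are not given here.

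The sizes of the differences were small. Changes of the 110 members ran from -0.80 to 1.06 with a median of 0.11 (quartiles -0.12 and 0.32), while all tested probe sets had a median of 0.04 (quartiles -0.25 and 0.31). A change above 0 was found for 71 members, 64.5%, beside 53.8% of all probe sets. For 66 of the 110 the 95% interval of the change, not adjusted for the number of tests, lay inside a 2-fold difference in either direction. For the others the samples are too few to bound the change that closely. Groups without overlap were found in 6 members, each with low salt higher, and in 0 with low salt lower. That is 5.45% of the members beside 10.8% of all tested probe sets, of which 5.13% had low salt higher and 5.68% lower. These 6 were probe sets of DNAJC18, DNAJB12, DNAJC10, CCT7, DNAJA2 and HSPA4L. In the deposited intensities only those of DNAJB12 and DNAJA2 kept the groups apart. DNAJC18 and HSPA4L, with control means of 4.52 and 4.95, passed the dim filter only through low salt.

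**Figure D1:**
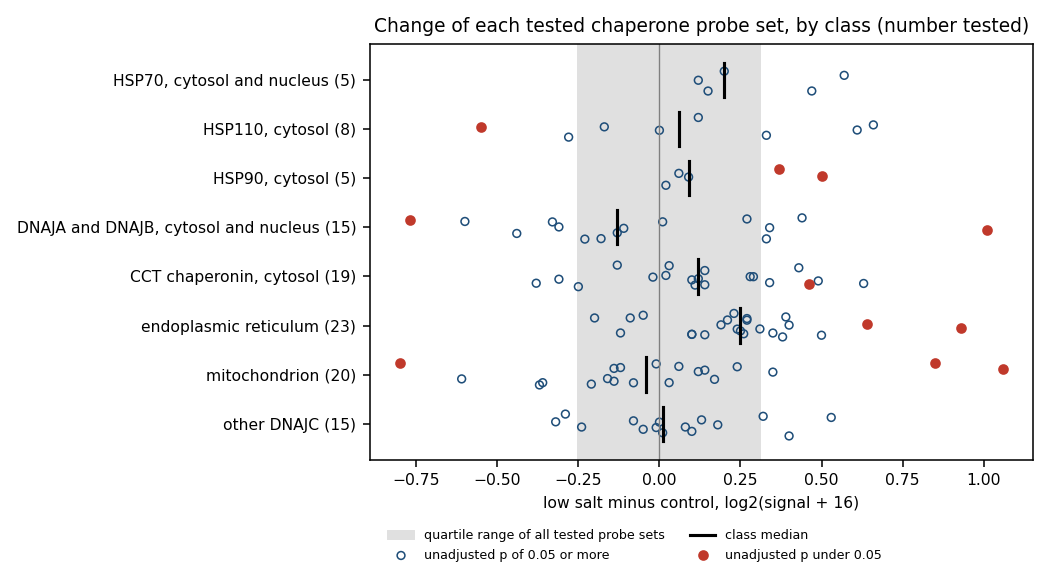
Change of each tested chaperone probe set (low salt minus control, log2 of signal plus 16, horizontal axis) by class, with the number of probe sets in brackets, black bars at the class medians, red points at an unadjusted p under 0.05 and a grey band for the quartile range of all tested probe sets. Medians ran from -0.13 for cytosolic DNAJA and DNAJB genes to 0.25 for genes of the endoplasmic reticulum, and the band describes single probe sets, not class medians.

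The cytosolic HSP70 proteins, the central machines of this set, had 5 tested probe sets for 4 genes. All 5 lay above 0, with a median change of 0.20, and 0 had an unadjusted p under 0.05. HSPA8, the constitutive HSC70, had log2 signals of 12.22, 12.36 and 12.25 in the controls and 12.55, 12.61, 12.31 and 12.25 in low-salt 1 to 4. Low-salt 1 and 2 stood above every control while low-salt 3 and 4 lay among them, and the change was 0.15 ± 0.12 (SE, 95% interval -0.11 to 0.41, limma adjusted p = 0.673). HSPA2, an HSP70 best known from the testis, stood at 7.06, 6.67 and 7.65 in the controls and at 7.43, 7.16, 7.85 and 7.96 in low salt, with overlap and a change of 0.47 ± 0.30 (SE), which was 0.25 without control 3 and 0.77 without control 4. The 2 probe sets of HSPA14, a ribosome-associated HSP70, differed by 0.57 and 0.20, and HSPA12B, a distant relative found in endothelium, by 0.12.

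The stress-inducible HSP70 carries the symbol HSP70 in the annotation, outside the rule, and is given beside the members. Its probe set read 6.15, 6.16 and 7.88 in the controls and 6.61, 7.10, 7.22 and 7.38 in low salt. Control 4 was the highest of all 7 samples and the other controls the lowest, so the change of 0.35 ± 0.40 (SE, limma adjusted p = 0.793) has an interval from -0.51 to 1.21 and became 0.97 without control 4.

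HSP110 proteins, which reset HSP70 by exchanging its nucleotide, had 8 tested probe sets with a median change of 0.06. It became -0.05 with the values as deposited, where all tested probe sets had a median of -0.17. HSPH1, the heat-inducible HSP110, was the one that lay lower. Its probe set of smallest p read 9.06, 8.33 and 9.09 in the controls and 8.11, 8.41, 8.41 and 8.18 in low salt. Controls 1 and 4 stood above all low-salt samples and control 3 among them, with a change of -0.55 ± 0.24 (SE, unadjusted p = 0.0372, limma adjusted p = 0.42). The brightest HSPH1 probe set differed by -0.28 ± 0.21 (SE), with control 4 highest again at 11.68, and a dim one by 0.00. With array medians set equal the first was at -0.08 and the brightest changed sign, to 0.33, while all tested probe sets were at 0.26. HSPA4 probe sets, for the constitutive HSP110, differed by 0.12, 0.33 and 0.66, and HSPA4L by 0.61 in a dim probe set whose groups did not overlap and by -0.17 in another.

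HSP90 in the cytosol is read by 5 tested probe sets, all above 0 with a median of 0.09. The stress-inducible HSP90AA1 had the narrowest spread of all tested members after the arrays were given the same distribution. It stood at 13.73, 13.64 and 13.51 in the controls and at 13.68, 13.73, 13.60 and 13.73 in low salt. The change was 0.06 ± 0.09 (SE), and its 95% interval, -0.13 to 0.25, leaves room for small differences only on that scale. The deposited intensities spread more widely, at 9919.3 to 18355.7 in the controls and 10008.7 to 13911.2 in low salt. With the values as deposited the change of HSP90AA1 was -0.19. HSP90AB1, the constitutive form, had 2 of its 4 tested probe sets higher at an unadjusted p under 0.05, the 2 of 5 probe sets of the class that did (40.0%, beside 11.0% of all tested). The brightest read 10.61, 11.10 and 10.49 in the controls and 11.18, 10.91, 11.04 and 11.30 in low salt, a change of 0.37 ± 0.17 (SE, limma adjusted p = 0.446). Control 3 overlapped the low-salt samples. The other such probe set read 10.22, 10.67 and 10.48 against 11.06, 11.10, 10.28 and 11.39, with low-salt 3 at the level of the controls and a change of 0.50 ± 0.23 (SE, limma adjusted p = 0.436). The remaining HSP90AB1 probe sets differed by 0.09 and 0.02, and a dim untested one by -0.07.

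Among the J-domain proteins of cytosol and nucleus, the DNAJA and DNAJB genes, 15 tested probe sets for 8 genes had a median change of -0.13, below the 0.04 of all tested probe sets. It lay above that of all probe sets with the values as deposited, at -0.09 beside -0.17. With array medians set equal it was 0.34 beside 0.26. These scalings differ by a constant per array, which shifts every probe set alike, so they are not separate checks. Of the 15, 6 lay above 0 and 2 had an unadjusted p under 0.05 (13.3%). DNAJA4, an HSP40 abundant in heart and skeletal muscle, had the smallest p of all members. Its probe set read 11.04, 10.42 and 11.43 in the controls and 9.88, 10.76, 10.25 and 9.87 in low salt. Low-salt 2 lay above control 3, so the groups overlapped, and the change was -0.77 ± 0.25 (SE, 95% interval -1.32 to -0.23, unadjusted p = 0.009, limma adjusted p = 0.3, 0.184 to 0.841 over the alternatives). With array medians set equal it was -0.20. A dimmer DNAJA4 probe set pointed the other way, at 8.30, 7.70 and 8.62 in the controls and from 8.14 to 9.02 in low salt, a change of 0.44 ± 0.29 (SE).

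DNAJB5, a J protein that binds the histone deacetylase HDAC4 in cardiomyocytes, differed most in this class. A dim probe set read 4.34, 4.70 and 5.21 in the controls and 5.71, 6.48, 4.98 and 5.86 in low salt, a change of 1.01 ± 0.41 (SE, limma adjusted p = 0.394). Its size depends on the offset, 1.82 with 1 and 0.46 with 64, and the probe set passed the dim filter only through its low-salt values. Low-salt 3 lay below control 4, and the brighter DNAJB5 probe set differed by -0.11 ± 0.34 (SE). DNAJA2, a general HSP70 partner, stood at 9.41, 9.88 and 9.88 against 9.92, 10.28, 10.05 and 9.99, without overlap, but by only 0.04 between the nearest samples, and its change was 0.34 ± 0.18 (SE, limma adjusted p = 0.53), or 0.18 without control 1.

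The classical heat-shock J protein DNAJB1 was read by 3 dim tested probe sets that did not move alike, with changes of -0.44, 0.27 and 0.33. DNAJB6, a chaperone of the Z-disc whose mutations cause a limb-girdle muscular dystrophy, stood at 10.85, 10.94 and 11.28 in the controls and at 10.86, 10.47, 11.07 and 10.78 in low salt. Its groups overlapped and the change was -0.23 ± 0.17 (SE), with the other probe sets at -0.33 and 0.01. With array medians set equal the brightest DNAJB6 probe set was at 0.36 instead. DNAJB4 differed by -0.31 and -0.13 in its 2 probe sets, both with control 4 as the highest sample, at 11.20 and 11.21.

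The CCT chaperonin, an obligate partner for actin and tubulin folding, had 19 tested probe sets for 8 genes, 14 of them above 0, with a median of 0.12. The genes CCT2, CCT3, CCT4, CCT5, CCT7 and CCT8 for subunits of the ring differed by 0.14, 0.14, 0.34, 0.46, 0.03 and 0.02 in their brightest probe sets. CCT5 had the 1 probe set of the class with an unadjusted p under 0.05 (5.26%). It read 9.56, 10.25 and 9.81 in the controls and 10.26, 10.14, 10.55 and 10.37 in low salt, a change of 0.46 ± 0.19 (SE, limma adjusted p = 0.4), with control 3 inside the low-salt range. Without control 1 the change was 0.30. A dimmer CCT7 probe set separated the groups, at 6.70, 6.60 and 6.59 against 6.93, 7.30, 7.22 and 7.06 (0.49 ± 0.26, SE, limma adjusted p = 0.51). Its deposited intensities overlapped, at 79.7 to 107.1 in the controls and 91.7 to 146.2 in low salt. The brightest CCT7 probe set spread from 8.97 to 10.55 within the controls alone and from 9.09 to 10.42 in low salt, so its change of 0.03 has an interval of -0.75 to 0.80. CCT8 was steadier, with 12.17, 12.18 and 12.67 in the controls and 12.25, 12.20, 12.65 and 12.33 in low salt. The brightest probe sets of CCT2, CCT3, CCT7 and CCT8 changed sign with a single sample left out, and CCT2 went to -0.20 without control 1. CCT6B, a form known from testis, and CCT8L2, a retrogene relative, were dim, at -0.38 and -0.31. Of the remaining subunits, TCP1 is named outside the rule and CCT6A is not named among the probe sets used here.

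Genes of the endoplasmic reticulum had a median change of 0.25 over 23 tested probe sets for 11 genes, and 19 of the 23 lay above 0. This was the highest class median under the settings used here. It was not the highest with an offset of 1 (0.28, beside 0.37 for cytosolic HSP70) or without control 4, where HSP70 stood at 0.43. HSP90 equalled it on the deposited scale, and so also with array medians set equal, which shifts every probe set alike. The median of the endoplasmic reticulum class was 0.24 on the deposited scale and 0.67 with array medians set equal. All tested probe sets stood at -0.17 and 0.26 there. Just 2 of the 23, for DNAJB12 and DNAJC18, had an unadjusted p under 0.05, both higher, which is 8.7% beside 11.0% of all tested probe sets. The class median stayed between 0.20 and 0.33 whichever sample was left out.

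The 3 probe sets of the class whose groups did not overlap (13.0%, beside 10.8% of all tested) belong to J proteins, DNAJB12 and DNAJC18 in the membrane and DNAJC10 in the lumen. In the deposited intensities those of DNAJC18 and DNAJC10 overlapped. DNAJB12, which helps degrade misfolded membrane proteins such as ion channels, read 7.17, 8.14 and 8.09 in the controls and 8.46, 8.45, 8.45 and 8.39 in low salt, a change of 0.64 ± 0.26 (SE, limma adjusted p = 0.395). Much of it came from control 1, without which it was 0.33, and its dimmer probe sets differed by -0.20 and -0.05. DNAJC18 stood at 4.31, 4.62 and 4.65 against 5.47, 5.23, 5.61 and 5.50, a change of 0.93 ± 0.35 (SE, limma adjusted p = 0.363) in a probe set with a median deposited intensity of only 15.3. The change was 1.93 with an offset of 1 and 0.38 with 64. The other tested DNAJC18 probe set, brighter but also dim, differed by 0.24 ± 0.34 (SE), with overlap. DNAJC10, a J protein with thioredoxin domains that reduces disulfide bonds, read 10.94, 11.12 and 11.13 in the controls and 11.39, 11.24, 11.19 and 11.66 in low salt. This bright probe set had a change of 0.31 ± 0.15 (SE, 95% interval -0.01 to 0.63, limma adjusted p = 0.471), and the other DNAJC10 probe sets differed by 0.25 and 0.10.

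HSPA5 and HSP90B1, the luminal HSP70 and HSP90, varied more among the low-salt samples than between the group means. HSPA5 read 10.77, 10.57 and 10.76 in the controls and 10.96, 11.75, 10.87 and 9.97 in low salt, so low-salt 2 was the highest and low-salt 4 the lowest of all samples. Its change was 0.19 ± 0.29 (SE) and turned to -0.10 without low-salt 2. The less bright HSPA5 probe set had the same extremes, 10.77 in low-salt 2 and 8.63 in low-salt 4. HSP90B1 stood at 11.75, 11.48 and 11.51 against 11.77, 12.30, 11.16 and 11.66, again with low-salt 2 on top, and changed from 0.14 to -0.05 without that sample. A less bright HSP90B1 probe set read 10.25, 10.16 and 10.28 against 10.66, 11.07, 10.48 and 10.23, with a change of 0.38 ± 0.19 (SE, limma adjusted p = 0.494). DNAJB11, the J protein that loads clients onto HSPA5, was also highest in low-salt 2, at 11.10, beside 10.29 to 10.55 in the controls and 10.44 to 10.77 in the other low-salt samples. DNAJC3, known as P58IPK, an inhibitor of eIF2 kinases and luminal co-chaperone, differed by 0.50, 0.35 and 0.27 in its tested probe sets. DNAJB9, which returns HSPA5 to IRE1, differed by 0.21 in its brightest and by -0.12 in its other one. HSPA13 differed by 0.10 in its brightest and by 0.40 in its other one. DNAJC1, a membrane J protein at the ribosome, differed by 0.39 and 0.26. DNAJB14, a relative of DNAJB12, differed by -0.09.

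Mitochondrial members had 20 tested probe sets for 8 genes with a median change of -0.04. It was -0.10 on the deposited scale and 0.34 with array medians set equal, above the -0.17 and 0.26 of all tested probe sets there. The shift between these scalings is the same for every probe set, so they are not separate checks. HSPD1 and HSPE1, which form the HSP60 and HSP10 folding chamber and lie next to each other in the dog gene table, had small changes. HSPD1 stood at 11.27, 11.20 and 11.43 in the controls and at 11.22, 11.68, 11.46 and 11.78 in low salt, a change of 0.24 ± 0.15 (SE, 95% interval -0.09 to 0.56). HSPE1 stood at 12.16, 11.88 and 12.06 against 11.93, 12.48, 11.86 and 12.32, a change of 0.12 ± 0.16 (SE). Low-salt 2 and 4 were the highest samples for both genes. HSPA9, the matrix HSP70 that pulls proteins through the import channel, read 10.03, 9.93 and 10.21 against 9.92, 10.31, 9.78 and 9.65, a change of -0.14 ± 0.19 (SE). It was 0.42 with array medians set equal, where the sign also turned for DNAJC19, the J protein of the import motor whose loss causes a dilated cardiomyopathy with ataxia. The related DNAJC15 differed by 0.06 and -0.16, and DNAJC4 by 0.14 and 0.17. DNAJC19 stood at 12.76, 12.91 and 12.76 in the controls and at 12.59, 12.80, 12.64 and 12.64 in low salt, a change of -0.14 ± 0.10 (SE) that was 0.31 with equal medians.

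DNAJA3 and DNAJC11 were the mitochondrial genes with an unadjusted p under 0.05 (3 of 20 probe sets, 15%), in opposite directions. DNAJA3, the matrix J protein whose loss in mice gives a dilated heart, read 4.43, 5.87 and 5.84 in the controls and 6.22, 7.03, 5.86 and 6.63 in low salt, a change of 1.06 ± 0.41 (SE, limma adjusted p = 0.379). Control 1 was far below the rest, and without it the change was 0.59. It was 1.65 with an offset of 1 and 0.56 with 64. Another dim DNAJA3 probe set read 5.89, 4.71 and 4.93 against 5.85, 6.16, 6.01 and 6.09, a change of 0.85 ± 0.36 (SE, limma adjusted p = 0.404) in which control 1 was the high control.

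DNAJC11, a J protein of the complex that shapes mitochondrial cristae, lay lower in all 5 of its tested probe sets, from -0.80 to -0.12, and its untested one differed by -1.22. The probe set of smallest p read 6.44, 6.62 and 6.69 in the controls and 4.92, 5.71, 6.55 and 5.94 in low salt. Low-salt 3 fell inside the control range and the other low-salt samples below it, with a change of -0.80 ± 0.37 (SE, limma adjusted p = 0.447). It was -0.51 without low-salt 1, and -1.11 and -0.45 with offsets of 1 and 64. The tested ones had median deposited intensities of 28.3 to 81 and share samples, so their common sign is not 5 separate measurements.

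The other DNAJC genes, J proteins of nucleus, vesicles and cytosol, gave 15 tested probe sets with a median of 0.01, between -0.32 and 0.53, and 0 had an unadjusted p under 0.05. DNAJC13, an endosomal J protein, and DNAJC2, which works at the ribosome, differed by 0.00 and 0.13 in their brightest probe sets. DNAJC21, needed for ribosome assembly, ranged from 7.35 in low-salt 2 to 9.26 in control 4 in its brightest probe set. DNAJC7, which links HSP70 and HSP90, differed by -0.32, -0.08 and 0.10, DNAJC8, a splicing factor, by 0.18 and DNAJC9, a histone chaperone, by -0.05 and 0.08. The single probe sets of DNAJC12, DNAJC25 and DNAJC27 differed by 0.40, 0.32 and -0.01, and the testis-type DNAJB7 and DNAJB8 of the cytosolic class by -0.60 and -0.18. The 9 genes with no tested probe set were DNAJB3, DNAJB13, DNAJC5B, DNAJC6, DNAJC16, DNAJC17, DNAJC22, DNAJC30 and HSPA12A. DNAJA1, DNAJC5 and CCT6A were looked for and are not named among the probe sets used here.

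**Figure D2:**
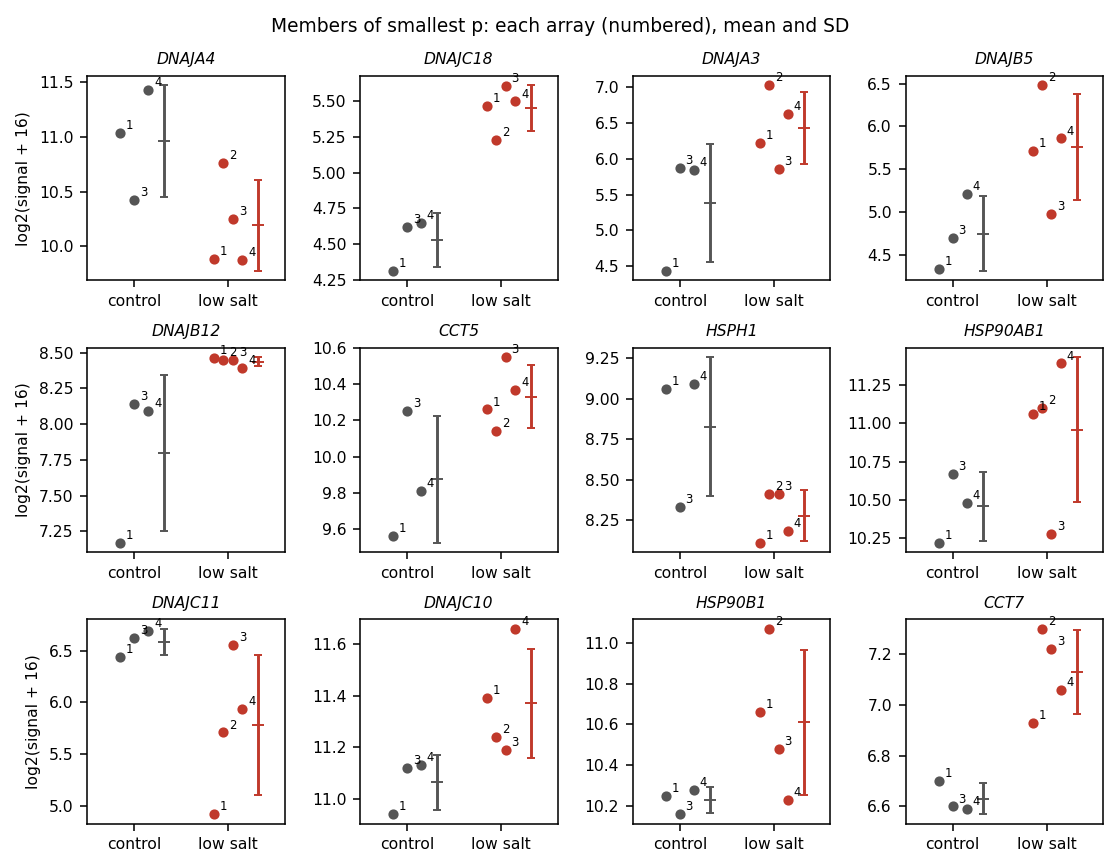
Log2 signal (vertical axis, log2 of signal plus 16) of the 12 member genes of smallest p, in the probe set of smallest p, for each numbered control (grey) and low-salt (red) sample with the group mean and SD. The groups are apart for DNAJC18, DNAJB12, DNAJC10 and CCT7 and overlap for the other 8, and 0 of the 12 passed an adjusted p of 0.05 by limma.

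Probe sets of the same gene gave a check on each other. Of the 53 genes, 37 had at least 2 tested probe sets, and in 19 of these all lay on the same side of 0, in 16 above it and in 3 below it. With 3 or more tested probe sets there were 17 genes. All were above 0 in 7 of them (HSP90AB1, HSPA4, DNAJC3, DNAJC10, CCT4, CCT5 and CCT7) and all below 0 in DNAJC11. HSPD1, HSPA9, CCT2, CCT8, DNAJB1, DNAJB6, DNAJB12, DNAJC7 and HSPH1 had probe sets on both sides or at 0. Probe sets of 1 gene share samples and their RNA, so these counts describe the readout and are not replicates. Of the 110, 60 are of the type that can read several related transcripts and 2, the one for HSPE1 among them, of the type that may cross-hybridise, and close family members could be mixed in both.

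**Figure D3:**
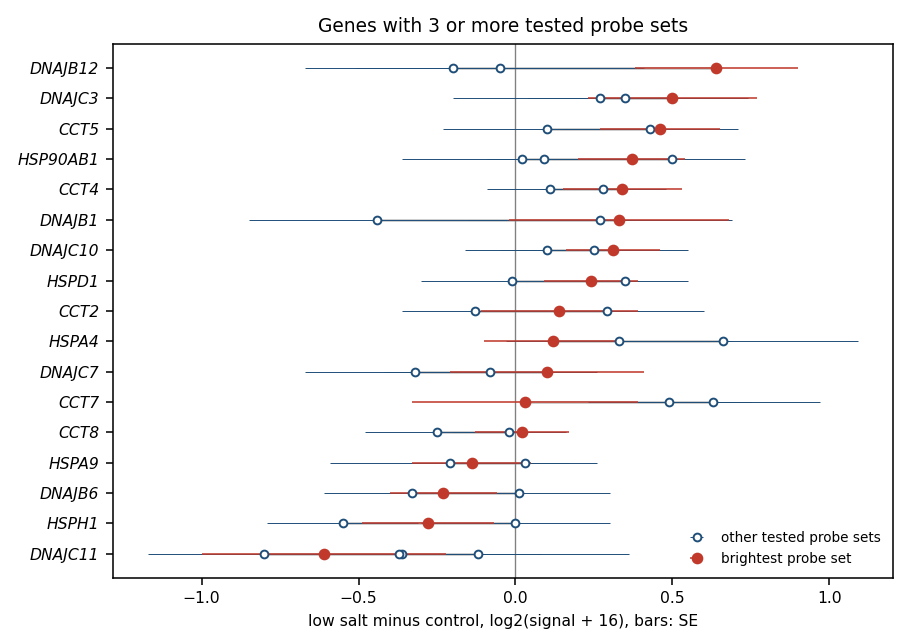
Change of every tested probe set (low salt minus control, log2 of signal plus 16, with SE) in the 17 genes that have 3 or more, the brightest in red. The probe sets of DNAJC11 lie below 0 and those of DNAJC3 above it, while DNAJB12 runs from -0.20 to 0.64 and DNAJB1 from -0.44 to 0.33.

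Low-salt 2 and control 4 were often the highest sample. This was noticed after the values were seen, and no test was made of it. Low-salt 2 was the highest of the 7 samples in 30 of the 110 members, 27.3%, beside 13.6% of all tested probe sets, and in 9 of the 23 probe sets of the endoplasmic reticulum and 7 of the 20 mitochondrial ones. The list of other folding and unfolded-protein genes of the endoplasmic reticulum had it highest in 17 of 55 probe sets, 30.9%. This was not particular to these compartments. The share was 37.5% for HSP110, 34.8% for nucleotide exchange factors and BAG proteins and 23.5% for HSP90 co-chaperones. It was 13.3% for other DNAJC, 11.1% for mitochondrial partners and 8.0% for chaperonin partners. In the endoplasmic reticulum list, protein disulfide isomerase PDIA3 read 10.85 in low-salt 2 beside 9.72 to 10.44 in the other samples in its brightest probe set. The brightest probe sets of ATF4, P4HB and DERL2 were highest there too. Those of CANX, CALR, MANF, PDIA4, PDIA6, XBP1 and HERPUD1, among others, were highest in other samples. Control 4 was the highest sample in 7 of the 15 cytosolic DNAJA and DNAJB probe sets, 46.7% beside 16.7% of all, and in 2 HSPH1 probe sets, the HSP70 probe set and the brightest one of BAG3 (10.38, beside 9.08 to 10.31 elsewhere). Control 4 also had the highest median deposited intensity of all arrays, 51.3 beside 19.3 to 44.2.

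**Figure D4:**
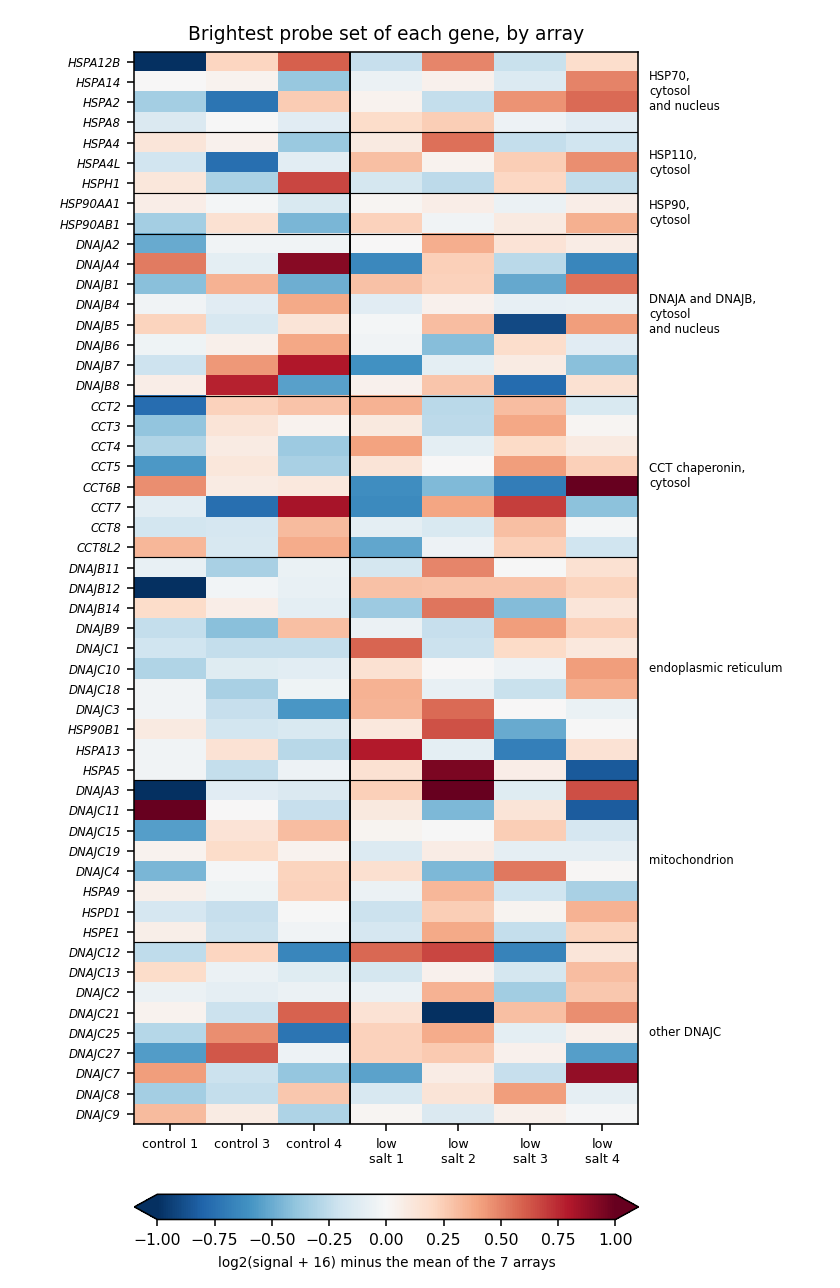
Log2 signal of the brightest tested probe set of each of the 53 genes in each sample, as the difference from the mean of the 7 samples (colour, red higher and blue lower, limits at -1 and 1), ordered by class with a line between controls and low salt. HSPA5, HSP90B1 and DNAJB11 are reddest in low-salt 2, and HSPH1, DNAJA4, DNAJB4 and DNAJB6 in control 4.

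The partners that drive and regulate these machines, were taken from 6 lists, and limma called 0 of their probe sets at an adjusted p of 0.05. Shares at an unadjusted p under 0.05 are given beside the 11.0% of all tested probe sets. Heat shock factors and their regulators (7 tested probe sets, median 0.30) all lay above 0, and 1 was higher at that level (14.3%). HSF2, a heat shock factor active in development and stress, read 10.23, 10.00 and 10.12 in the controls and 10.53, 10.51, 10.35 and 10.70 in low salt, without overlap (0.41 ± 0.16, SE, unadjusted p = 0.021, limma adjusted p = 0.371). HSF1 itself differed by 0.05. HSBP1, which binds HSF1 trimers, differed by 0.34 and 0.30 and HSF4 by 0.34.

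Nucleotide exchange factors and BAG proteins (23 probe sets, median 0.18) had 1 higher and 0 lower probe sets at that level (4.35%). That was ST13, known as HIP, which steadies the HSP70-client complex, with 11.40, 11.36 and 11.32 against 11.47, 11.70, 11.62 and 11.79 (0.29 ± 0.13, SE, limma adjusted p = 0.431). BAG5 differed by 0.54 in the probe set of smallest p but by -0.13 in its brightest, and BAG6 by -0.42. BAG3, the HSP70 partner that keeps Z-discs intact, differed by 0.11 in its brightest probe set.

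HSP90 co-chaperones (34 probe sets, median 0.08) had 2 higher and 0 lower (5.88%), both dim. TTC4 differed by 1.21 ± 0.39 (SE, limma adjusted p = 0.296) and the phosphatase PPP5C by 0.96 ± 0.35 (SE, limma adjusted p = 0.341), both without overlap. With control means of 4.8 and 4.6, both passed the dim filter only through low salt. The other tested PPP5C probe set differed by 0.09. The kinase adaptor CDC37 differed by 0.84 in its probe set of smallest p, which is dim, and by 0.25 and 0.28 in its other tested ones. Chaperonin partners (25 probe sets, median -0.04) had 2 higher and 2 lower (16%). The prefoldin gene PFDN4 differed by -0.96 and the phosducin-like PDCL3, which helps CCT fold its clients, by 0.44. PFDN5 counted in both directions, at -1.15 in a dim probe set that may cross-hybridise and at 0.38 in its brightest, whose groups did not overlap.

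Other folding and unfolded-protein genes of the endoplasmic reticulum (55 probe sets, median 0.11) had 5 higher and 2 lower at that level (12.7%). PPP1R15A, known as GADD34, which restores translation after stress, differed by 1.5 ± 0.48 (SE, limma adjusted p = 0.288) in a probe set whose controls were near the floor, and the others of the gene by 0.44, 0.49 and -0.02. DERL1, part of the export channel for misfolded proteins, differed by -1.19 in the probe set of smallest p and by -0.23 in its brightest. MANF, a secreted stress protein, differed by 0.77 in a dim probe set and by -0.10 in its brightest. Mitochondrial import and proteostasis partners (27 probe sets) had a median of 0.40, with 2 higher and 0 lower (7.41%). The lists were not run under other scalings. CLPB, a disaggregase, differed by 1.05 ± 0.37 (SE), the mitochondrial HSP90 TRAP1 by 0.76 ± 0.33 and 0.69, and the protease subunit SPG7 by 0.52, with adjusted p from 0.339 to 0.466. Control 1 was the lowest sample in 16 of these 27 probe sets, 59.3%, beside 20.4% of all tested probe sets.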

How the data were processed

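The authors deposited 1 linear intensity per probe set and array, made with the array maker's software GCOS, per the submitters' processing notes, which are used here without its version and settings. Each array's 2% trimmed mean of intensity is 150.0 or 150.1, so arrays had been scaled. Yet their medians ran from 31.5 to 51.3 in controls and from 19.3 to 44.2 in low salt (p = 0.171, exact permutation test, two-sided). Low-salt 3 was at 44.2, and the other low-salt arrays, at 19.3 to 21.8, lay below every control. The log2 of intensity plus 16 was quantile normalized, and the dimmest 1 in 3 of 42924 probe sets by mean over all 7 arrays, with 111 control probe sets, stayed untested. The 28616 others were fitted with limma 3.58.1 (trend, R 4.3.3), on the 2 groups alone because no batch is named in the labels, with p-values adjusted by Benjamini-Hochberg over all of them; the script was tested on simulated data. Of the 62 member genes, 60 were found by gene number, under the same symbol, in a RefSeq gene table (assembly UU_Cfam_GSD_1.0), which was used for names and neighbours only. No coordinates or sequences are printed.

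Members, classes, lists and tests were chosen with earlier results of these data known. Named genes are the 12 member genes of smallest p, chaperones listed whatever their values, 3 genes of smallest p per partner list, and genes with 3 or more tested probe sets; all other members, HSF1, BAG3 and PDIA3 were added after their values were seen. Classes follow the known location of each protein. Alternatives were other offsets (1 and 64), scalings, filters and tests, array weights, 1 value per gene, a replicate block and leaving out each array. Same-numbered samples did not deviate together (correlations of 0.074, -0.264 and -0.18 for numbers 1, 3 and 4), so the numbers were not taken as pairs.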

Additional observations from a re-analysis of the deposited data

Results flagged for a closer look

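DNAJB12 was the 1 result set aside among 37 named probe sets, where about 1 in 20 groups would be by chance. Its low-salt 4 sample, at 8.39, lay below the other low-salt samples, which ran from 8.45 to 8.46. The gap is small and stands out because those 3 values were nearly equal.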

How the results depend on the processing

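Under all 18 alternatives 0 members passed an adjusted p of 0.05, the replicate block included (0 members), and leaving out 1 sample gave 0 each time. The lowest adjusted p of a named member was 0.108, for an HSP90AB1 probe set. At an unadjusted p under 0.05 the counts of 8 higher and 3 lower became 19 and 0 with array medians set equal, 2 and 1 with the replicate block, 4 and 2 with probe sets above the median mean only, 4 and 1 with the brightest probe set of each gene, and 1 and 0 with the mean of its probe sets. Shares of all tested probe sets under these settings are not given here, so these counts are not read as a result about the members. The median of all tested probe sets was 0.04, 0.26 with equal medians and -0.17 as deposited, and the classes did not move by that shift alone. With equal medians all members stood at 0.49, HSP70 at 0.61, HSP110 at 0.38, HSP90 at 0.67, cytosolic DNAJA and DNAJB at 0.34, CCT at 0.66, the endoplasmic reticulum at 0.67, the mitochondrion at 0.34 and the other DNAJC at 0.48. As deposited, all members stood at 0.05, HSP90 at 0.24 and CCT at 0.23. Equal medians and the deposited scale differ by the same shift for every probe set, so they are not separate checks. Without a filter the cytosolic DNAJA and DNAJB median was 0.01, with 1 probe set per gene the mitochondrial one 0.09, and with gene means the HSP110 one 0.22. Leaving out 1 sample gave medians of 0.06 to 0.17 (all members), 0.03 to 0.32 (HSP90), -0.22 to -0.04 (cytosolic DNAJA and DNAJB), 0.07 to 0.23 (CCT), 0.02 to 0.15 (HSP110), 0.21 to 0.43 (HSP70), 0.20 to 0.33 (endoplasmic reticulum), -0.10 to 0.13 (mitochondrion) and -0.01 to 0.13 (other DNAJC).

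Of 37 named probe sets, 14 turned sign under some alternative and 23 under none. As deposited HSPA13 was at -0.28, HSP90AA1 at -0.19 and DNAJB1 at -0.04. With equal medians HSPH1 was at 0.33, HSPA9 at 0.42, DNAJB6 at 0.36 and DNAJC19 at 0.31. With the replicate block HSPA4 was at -0.05, HSPA5 at -0.10, HSP90B1 at -0.05 and CCT7 at -0.10, in a fit to which low-salt 2, with no control of its number, adds nothing. With gene means CCT8 was at -0.08. Leaving out 1 sample gave ranges of -0.20 to 0.33 (CCT2), -0.02 to 0.25 (CCT3), -0.34 to 0.45 (CCT7), -0.08 to 0.18 (CCT8), -0.05 to 0.22 (HSPA4), -0.15 to 0.35 (HSPA13), 0.00 to 0.10 (HSP90AA1), -0.10 to 0.50 (HSPA5) and -0.05 to 0.33 (HSP90B1). The cause of these shifts was not tested. Offsets of 1 and 64 moved the dim DNAJC18, DNAJB5, DNAJA3 and DNAJC11 probe sets by over 1.5 times in at least 1 direction. Dim probe sets limit the rest: 26 of the 110 tested members had a median deposited intensity under 50.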
